A study of Rattus norvegicus with 82 samples.

Results

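Return of early cardiac expression changes towards vehicle was examined between 24 and 6 h after a low dose of vinblastine, on 24 of the 82 arrays of the series. The quantity of interest was an interaction: the log2 difference between vinblastine 0.5 mg/kg and saline at 24 h, minus the same difference at 6 h. The 4 groups, of 6 arrays each, were taken as labelled, and each array stands for the heart of 1 animal. All were male Wistar rats of the strain Crl:Wi(Han), and no age was stated in the labels. The groups were vinblastine 0.5 mg/kg at 24 h, saline at 24 h, vinblastine 0.5 mg/kg at 6 h and saline at 6 h. Each animal received a single intravenous injection, of vinblastine or of its vehicle, 0.9% saline, and different animals were used at each time. Vinblastine 3 mg/kg, with 6 arrays at each time, served as the higher dose. In the fit the remaining arrays (colchicine and vincristine) served to estimate the spread. They also entered the choice of probe sets, the expression filter and the distances by which arrays were set apart.

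Vinblastine binds tubulin and stops its assembly into microtubules, the cytoskeletal tracks that in heart muscle cells carry cargo and help to set stiffness. Microtubules are built from alpha and beta tubulin pairs and seeded by gamma tubulin. Cells adjust the amount of alpha and beta tubulin messenger RNA to the amount of unassembled tubulin, a control known as tubulin autoregulation, in which translating tubulin messages are degraded when free tubulin is high.

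The tissue label was checked first: 11 of the 12 listed cardiomyocyte markers were measured, and their summed intensity lay between 171434 and 226848 on all 24 arrays. Summed atrial cardiomyocyte markers (4 of 4 measured) were uneven. On saline 6 h arrays they ran from 979 to 15038.5 (median 1632), highest on replicate 2, and on vinblastine 24 h arrays from 1140 to 6724 (median 2973). The part of atrial tissue in the results was not tested. Array medians ran from 58.8 to 63.3, and correlations between arrays of a group ran from 0.978 to 0.997. On 10 of the 82 arrays the distance to the array's own group median was over 1.3 times that to the median of some other group, and 2 of these belong to the groups compared here. They are the array labelled vinblastine 0.5 mg/kg 24 h replicate 5 (ratio 1.90) and the array labelled vinblastine 0.5 mg/kg 6 h replicate 6 (ratio 1.89), both nearest to colchicine 2 mg/kg at 6 h. In turn, the array labelled colchicine 2 mg/kg 6 h replicate 4 lay nearest to vinblastine 0.5 mg/kg at 24 h (ratio 2.30). In the 3 mg/kg groups, the array labelled vinblastine 3 mg/kg 6 h replicate 1 was also among the 10 (ratio 1.65). Whether these arrays carry the right labels was not tested, and the values of the groups they stand in depend on it. Other arrays of the compared groups were also nearer to another group's median, at ratios under 1.3, such as saline 6 h replicate 4 (1.22). Results below use all arrays as labelled. Values without the 2 arrays of the compared groups, or without all 10, stand beside many of them. Arrays left out for their profile make the remaining spread smaller by construction, so the p-values without them are no independent support.

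Both of those arrays were high in the same transcripts, which were chosen after their values were seen. S100a9, a calcium-binding protein of neutrophils, read 568 on vinblastine 24 h replicate 5, against 37.1 to 45.1 on the other 5 arrays of that group and 38.5 to 67.1 on saline 24 h arrays. At 6 h it read 1139 on vinblastine replicate 6, against 52.7 to 269.9 on the rest of that group and 35.4 to 91.3 on saline arrays. Otud1, a deubiquitinase, read 5627 on the 24 h array and 6844 on the 6 h array, and no other array of the 4 groups exceeded 677. Nppb, the natriuretic peptide released by stretched heart muscle, read 11462 and 10059 on these arrays and at most 5428 on the others. Summed neutrophil markers (8 of 12 measured, 4 over the filter on dim probe sets) had a median of 312 in vinblastine 24 h arrays and 316 in saline 24 h arrays, and of 399 in vinblastine 6 h arrays and 329 in saline 6 h arrays. Their highest values, 998 and 1746, were those same vinblastine arrays, and these sums include S100a9 itself. Of the 4 markers over the filter, S100a9 and S100a8 changed by 1.29 and 0.69 at 6 h, Itgb2 by 0.05 and Camp by -0.12. At 24 h the changes were 0.34, 0.29, 0.07 and -0.05 in the same order. The part of these arrays in each result was not tested beyond leaving them out.

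**Figure D1:**
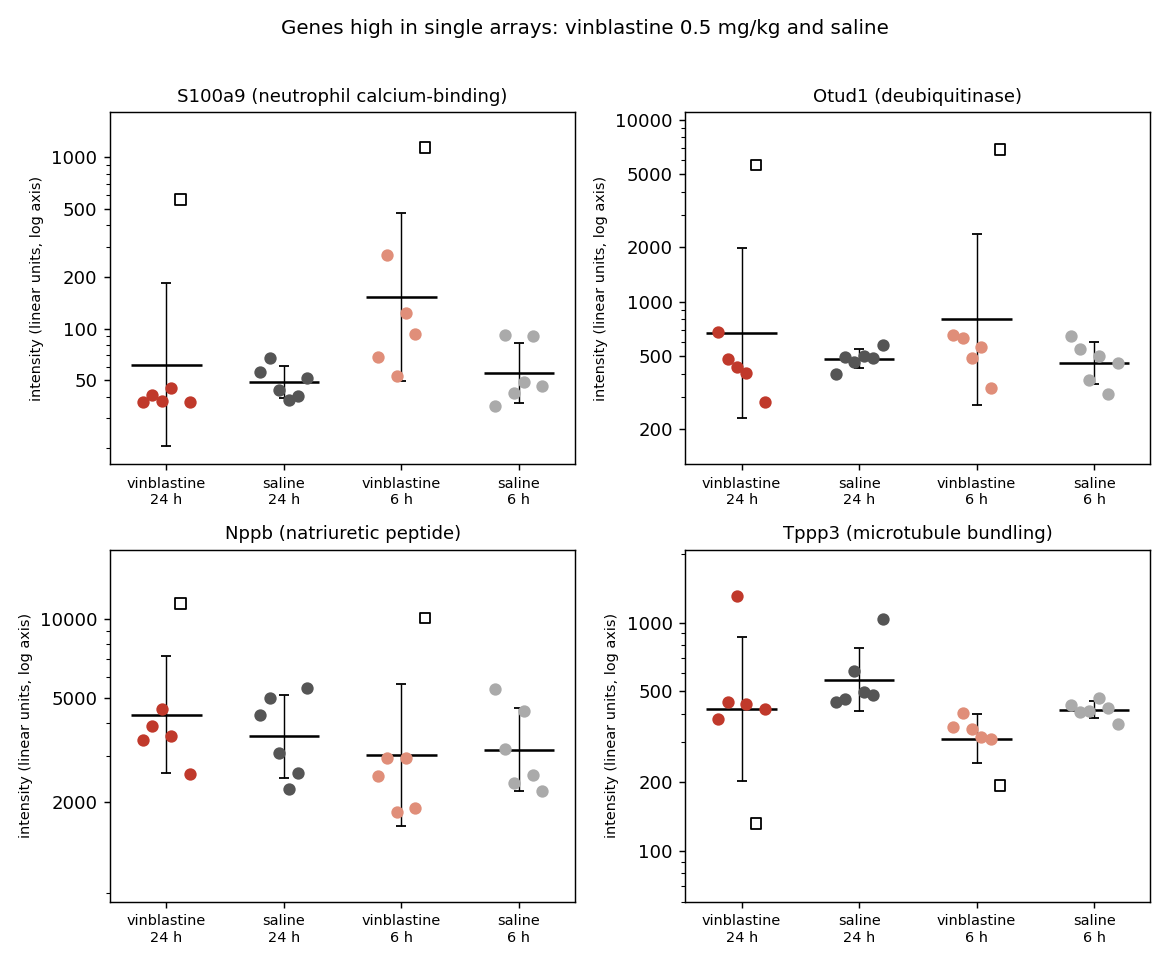
Intensity (log axis) of S100a9, Otud1, Nppb and Tppp3 by array. Open squares are the 2 arrays set apart as nearer to another group, and bars mark the mean and SD on the log2 scale (n = 6). The open squares are the highest points for S100a9, Otud1 and Nppb and the lowest for Tppp3 in their groups.

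The first question was which genes the low dose had changed at 6 h. The alpha tubulin Tuba4a, the beta tubulin Tubb4b and the gamma tubulin Tubg1 were lower, and Polr3b, the second-largest subunit of RNA polymerase III, was higher. These 4 of 11319 genes (0.0353%) passed an adjusted p under 0.05, 1 higher (0.00883%) and 3 lower (0.0265%). An unadjusted p under 0.05 was found for 591 (5.22%), 368 higher (3.25%) and 223 lower (1.97%), where 566 would be expected if no gene changed. Without the 2 arrays 4 genes passed, and 433 (3.83%), 279 higher (2.46%) and 154 lower (1.36%), had an unadjusted p under 0.05. Without the 10 arrays 10 genes passed (0.0883%).

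The second question was what remained at 24 h. In the limma fit no gene passed the threshold (0 of 11319, 0%), and 227 (2.01%) had an unadjusted p under 0.05, 71 higher (0.627%) and 156 lower (1.38%). That count is below the 566 expected if no gene changed, and the reason was not tested. A lack of calls does not show that levels equalled those of vehicle. With array weights 3 passed, and without the 10 arrays 1 did (0.00883%). Without the 2 arrays 0 passed, and 162 (1.43%) had an unadjusted p under 0.05, 63 higher (0.557%) and 99 lower (0.875%). Across the 591 genes with an unadjusted p under 0.05 at 6 h, the median size of the change was 0.20 at 6 h, while the change at 24 h in the direction of 6 h had a median of 0.03. Of these genes 408 kept the sign at 24 h (69.0%, against 54.5% of all genes), 585 were smaller at 24 h (99%, against 58.9% of all genes), and 13 had an unadjusted p under 0.05 with the same sign at 24 h, against 145 of all 11319 genes. Because genes were chosen on their 6 h values, a smaller value at 24 h follows from that choice to an extent that was not measured. The 591 are also close to the 566 expected if no gene changed. The smaller values therefore cannot show a return to vehicle across these genes, and no test is attached to them. Without the 2 arrays, 261 of 433 such genes kept the sign (60.3%, against 51.6% of all genes).

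The third question was whether the change at 24 h differed from that at 6 h. In the interaction no gene passed in the limma fit with all arrays (0%), and 257 (2.27%) had an unadjusted p under 0.05, 102 positive (0.901%) and 155 negative (1.37%). Nor did any pass without the 2 arrays, with 234 (2.07%) at an unadjusted p under 0.05, 78 positive (0.689%) and 156 negative (1.38%). Both counts are again below the 566 expected if no gene changed. Without all 10 arrays, a choice made after the data were seen, 6 genes passed (0.053%), all positive and all tubulins: Tuba4a, Tubb4b, Tubb5, Tuba8, Tubb2a and Tubg1. The same 6 passed when only the compared groups were fitted without the 2 arrays.

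**Figure D2:**
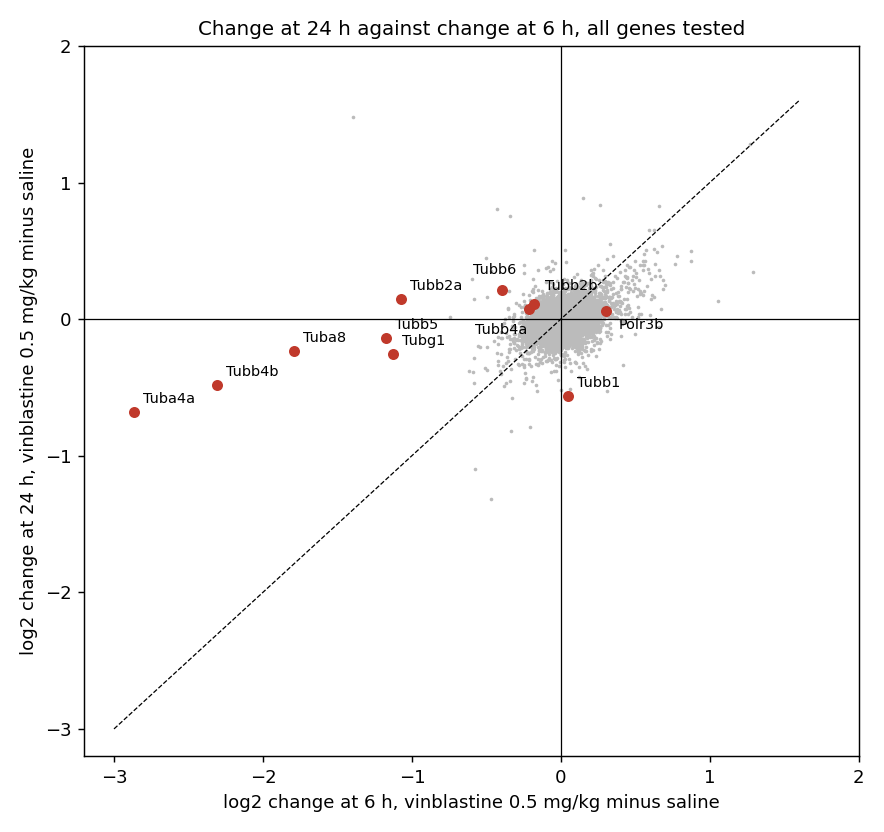
Log2 change at 24 h (vertical) against log2 change at 6 h (horizontal), vinblastine 0.5 mg/kg minus saline, for all 11319 genes in grey; red points are the tubulins and Polr3b, the dashed line marks equal changes. Tuba4a lies at -0.68 at 24 h and -2.87 at 6 h, and Tubb4b at -0.48 and -2.31.

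Sequences upstream of the start of the 4 genes that changed at 6 h are shown first, because 3 of them fell together. They are the 250 bases before the RefSeq start in the GRCr8 build, in the direction of the gene, at chr9:84162585-84162834 (minus strand) for Tuba4a, chr3:28438456-28438705 (minus) for Tubb4b, chr10:86552893-86553142 (plus) for Tubg1 and chr7:21030134-21030383 (minus) for Polr3b. Capitals mark CCAAT or its reverse ATTGG, the GC box GGGCGG or its reverse CCGCCC, and TATAAA or its reverse TTTATA.
Tuba4a: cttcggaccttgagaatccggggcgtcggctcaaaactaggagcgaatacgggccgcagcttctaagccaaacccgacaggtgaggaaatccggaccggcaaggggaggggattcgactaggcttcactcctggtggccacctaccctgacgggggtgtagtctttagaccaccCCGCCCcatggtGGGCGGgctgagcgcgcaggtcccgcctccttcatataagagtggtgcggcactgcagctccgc
Tubb4b: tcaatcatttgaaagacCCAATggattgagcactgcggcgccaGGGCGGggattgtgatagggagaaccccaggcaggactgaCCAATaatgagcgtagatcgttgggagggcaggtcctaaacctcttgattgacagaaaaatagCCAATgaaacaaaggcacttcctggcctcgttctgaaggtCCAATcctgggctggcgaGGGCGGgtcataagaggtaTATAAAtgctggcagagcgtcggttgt
Tubg1: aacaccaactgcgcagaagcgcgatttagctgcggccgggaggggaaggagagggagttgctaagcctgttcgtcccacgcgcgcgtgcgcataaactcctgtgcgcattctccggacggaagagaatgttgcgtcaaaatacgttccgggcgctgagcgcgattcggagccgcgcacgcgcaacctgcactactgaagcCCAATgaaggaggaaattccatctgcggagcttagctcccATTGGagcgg
Polr3b: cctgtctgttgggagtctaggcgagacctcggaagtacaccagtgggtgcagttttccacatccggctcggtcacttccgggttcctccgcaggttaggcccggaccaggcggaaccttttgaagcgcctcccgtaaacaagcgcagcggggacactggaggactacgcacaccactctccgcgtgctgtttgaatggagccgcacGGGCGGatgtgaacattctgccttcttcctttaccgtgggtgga
Tubb4b held 4 CCAAT boxes, 2 GC boxes and 1 TATA box. Tubg1 held 2 CCAAT boxes, Tuba4a 2 GC boxes and Polr3b 1 GC box. Of 33469 rat promoters of this length, 34% held a CCAAT box, 30.5% a GC box and 12.9% a TATA box. These letters describe the windows only.

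Tuba4a is an alpha tubulin of muscle and brain. It read 709 to 5641 (median 5040) on vinblastine 24 h arrays and 2958 to 6881 (median 5990) on saline 24 h arrays. At 6 h it read 554 to 817 (median 741) on vinblastine arrays and 4732 to 6258 (median 5187) on saline arrays. At 24 h the groups overlapped. Of the vinblastine arrays, 4 read 4907 to 5641 and replicate 3 read 2697. Replicate 5, one of the arrays set apart as nearer to another group, read 709. At 6 h the groups did not overlap. The log2 change was -0.68 ± 0.49 (SE) at 24 h, with a 95% interval of -1.65 to 0.30, and -2.87 ± 0.49 at 6 h (adjusted p = 0.00135), which is 7.29-fold lower. The interaction was 2.19 ± 0.69 (0.81 to 3.57, unadjusted p = 0.00222). Without the 10 arrays it was 2.56 ± 0.35 (adjusted p = 2.18e-06), and the 24 h change was -0.23 ± 0.25, with an interval of -0.72 to 0.26. That interval leaves room for a remaining fall of 0.72 on the log2 scale.

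Tubb4b is a beta tubulin found in most tissues. It read 514 to 3954 (median 3234) on vinblastine 24 h arrays and 1876 to 4112 (median 3423) on saline 24 h arrays, against 508 to 709 (median 676) on vinblastine 6 h arrays and 2802 to 3994 (median 3256) on saline 6 h arrays. Only the 6 h groups were free of overlap, and vinblastine 24 h replicate 5 again stood at the 6 h level. The log2 change was -0.48 ± 0.42 at 24 h (-1.32 to 0.35) and -2.31 ± 0.42 at 6 h (adjusted p = 0.00313). The interaction was 1.82 ± 0.59 (unadjusted p = 0.00303), and without the 10 arrays 2.17 ± 0.29 (adjusted p = 1.91e-06), with a 24 h change of -0.06 ± 0.20 (-0.47 to 0.34).

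Tubg1, the gamma tubulin that seeds microtubules, read 172 to 497 (median 444) on vinblastine 24 h arrays and 323 to 514 (median 454) on saline 24 h arrays. At 6 h the vinblastine arrays read 151 to 204 (median 191) and the saline arrays 364 to 484 (median 428). The 24 h groups overlapped and the 6 h groups did not. The log2 change was -0.26 ± 0.21 at 24 h and -1.13 ± 0.21 at 6 h (adjusted p = 0.00420). Its interaction of 0.87 ± 0.30 became 1.02 ± 0.16 without the 10 arrays (adjusted p = 4.80e-05). Of the gamma tubulin ring complex, 10 of 13 listed genes were tested. Tubg1 was 1 of 10 called at 6 h and the others had no unadjusted p under 0.05 in any of the 3 comparisons; the list's median log2 change was -0.05 at 24 h and -0.02 at 6 h.

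Saline 24 h replicate 6 was the lowest vehicle array for all 3 genes, at 2958, 1876 and 323. It was also nearer to another group's median than to its own (ratio 1.18), but under the ratio at which arrays were set apart. Without this array the Tuba4a interaction was 2.02.

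**Figure D3:**
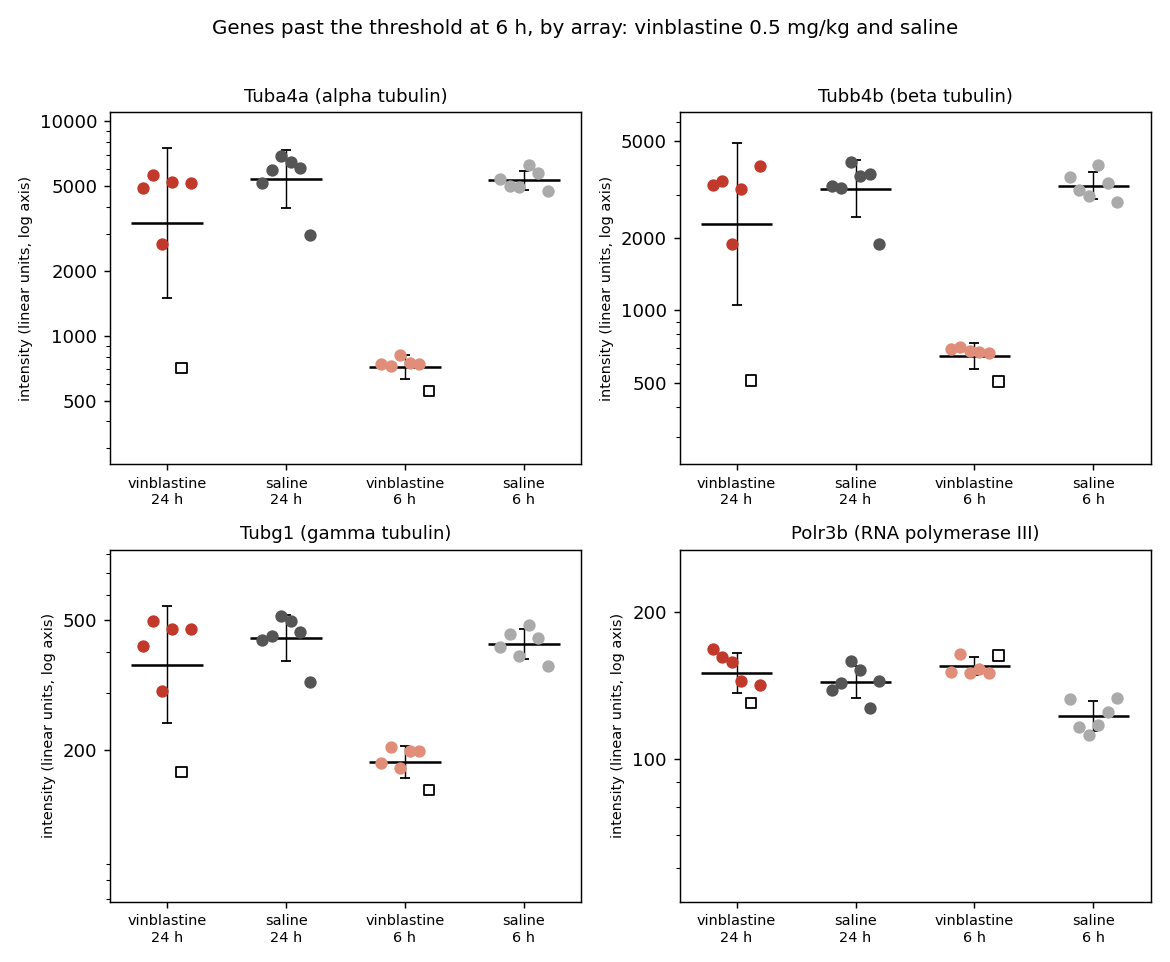
Intensity (log axis) of Tuba4a, Tubb4b, Tubg1 and Polr3b by array in the 4 groups. Open squares are the 2 arrays set apart as nearer to another group, and bars mark the mean and SD on the log2 scale (n = 6). For the 3 tubulins the vinblastine 6 h arrays lie below all saline arrays, and most vinblastine 24 h arrays lie among the saline arrays.

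The other tubulins followed by size. Of 16 listed alpha and beta tubulin genes 9 were tested. Tubb3 lay under the filter, and Tuba1a, Tuba1b, Tuba1c, Tuba3a, Tuba3b and Tubal3 had no probe set that carried their symbol alone. The median log2 change of the 9 was -0.14 at 24 h and -1.07 at 6 h, and the median interaction was 1.04, against -0.01, 0.02 and -0.04 over all genes. At 6 h, 2 passed the threshold and 8 had an unadjusted p under 0.05, all lower (against 1.97% of all genes lower at that level). In the interaction 8 were positive and 1 negative at an unadjusted p under 0.05, against 0.901% and 1.37% of all genes, and 0 passed. Without the 2 arrays the medians were 0.13 at 24 h, -0.94 at 6 h and 1.29 for the interaction.

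Tuba8, an alpha tubulin of muscle, read 483 to 3395 (median 2946) on vinblastine 24 h arrays and 1492 to 3256 (median 2547) on saline 24 h arrays, and 500 to 726 (median 646) on vinblastine 6 h arrays and 1761 to 2836 (median 2294) on saline 6 h arrays. The change at 6 h was -1.79 ± 0.41 (adjusted p = 0.0821), and at 24 h it was -0.23 ± 0.41, or 0.18 ± 0.41 without the 2 arrays. Its 6 h groups did not overlap. The 6 h change passed under 6 alternatives: quantile normalization (adjusted p = 0.0349), a fit of the compared groups alone (0.0105), array weights (0.0138), the replicate block (0.0387), without the 10 arrays (2.19e-09), and in the compared groups alone without the 2 arrays (1.55e-06).

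Tubb5, a widely used beta tubulin, read 453 to 1880 (median 1343) on vinblastine 24 h arrays and 1009 to 1636 (median 1299) on saline 24 h arrays, and 477 to 581 (median 522) on vinblastine 6 h arrays and 945 to 1356 (median 1227) on saline 6 h arrays. Its change was -0.14 ± 0.27 at 24 h and -1.18 ± 0.27 at 6 h (adjusted p = 0.0788). The 6 h change passed under the same 6 alternatives as that of Tuba8, with adjusted p from 2.19e-09 to 0.0363. A second Tubb5 probe set gave -0.02 at 24 h and -0.73 at 6 h.

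Tubb2a, a beta tubulin abundant in neurons, read 222 to 1678 (median 1479) on vinblastine 24 h arrays and 641 to 1157 (median 1024) on saline 24 h arrays. At 6 h it read 240 to 506 (median 430) on vinblastine arrays and 670 to 1084 (median 817) on saline arrays. At 24 h 4 of the 6 vinblastine arrays lay above every saline array, and replicate 5 below all of them. The change was 0.15 ± 0.34 at 24 h and -1.07 ± 0.34 at 6 h. Without the 10 arrays the 24 h change was 0.58 ± 0.16, with an adjusted p of 0.840, and the interaction 1.52 ± 0.23 (adjusted p = 1.28e-05).

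The remaining beta tubulins had smaller 6 h changes: -0.40 for Tubb6, -0.22 for Tubb4a and -0.18 for Tubb2b, with 24 h changes of 0.21, 0.08 and 0.11. None passed the threshold. Other Tubb4a probe sets over the filter fell less at 6 h, by -0.09 and -0.007, and gave 0.08 and 0.12 at 24 h. Tubb1, the beta tubulin of platelets and megakaryocytes, went the other way. It read 32.5 to 41.6 (median 37.0) on vinblastine 24 h arrays and 38.4 to 179 (median 43.3) on saline 24 h arrays, with change -0.57 ± 0.14 (adjusted p = 0.800). Saline 24 h replicates 4 and 5, at 179 and 92.1, were the highest of the 24 arrays, and without replicate 4 the change was -0.30. At 6 h Tubb1 changed by 0.05 ± 0.14.

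**Figure D4:**
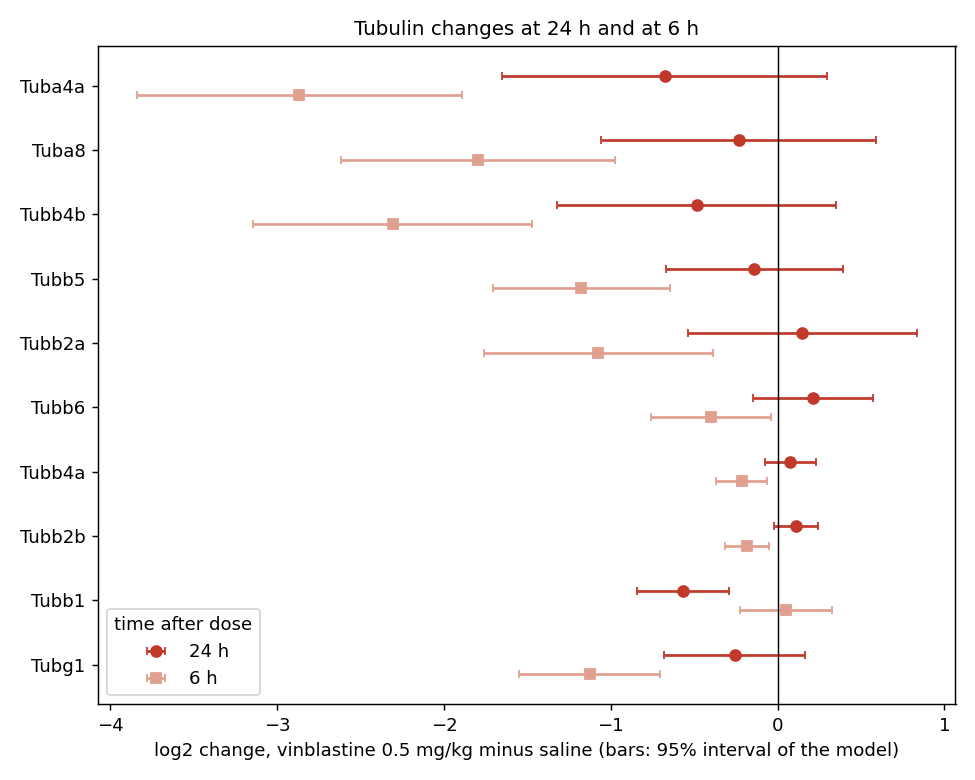
Log2 change of 10 tubulin genes, vinblastine 0.5 mg/kg minus saline, at 24 h (circles) and 6 h (squares), with 95% intervals of the model (6 arrays a group). At 24 h every interval except that of Tubb1 covers 0, and at 6 h every interval except that of Tubb1 lies below 0.

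Tubulin folding and autoregulation factors, 21 of 22 listed genes tested, had 0 members with an unadjusted p under 0.05 in any of the 3 comparisons and a median log2 change of -0.01 at 24 h and 0.09 at 6 h. Cct6a, a subunit of the chaperonin that folds tubulin, had changes of -0.12 at 24 h and 0.10 at 6 h. Of 38 tested microtubule-associated proteins and motors, none was called. In the interaction 1 of 38 had an unadjusted p under 0.05, against 1.37% of all genes negative at that level. It was Mapre3, a protein of growing microtubule ends (-0.29 ± 0.12), named as the smallest p of the list. At that level Mapre3 was also higher at 6 h, by 0.25 (1 of 38, against 3.25% of all genes). Stmn1, which sequesters tubulin, was lower at 24 h by -0.29 (1 of 38, against 1.38% of all genes). Single members of a list of this size are given as a description. None of the 38 was lower at 24 h without the 2 arrays (0 of 38). Tppp3, which bundles microtubules, had a change of -0.40 at each time. Its arrays were uneven at 24 h: 132 on vinblastine replicate 5 and 1304 on replicate 3, and 1038 on saline replicate 6.

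Polr3b read 130 to 168 (median 152) on vinblastine 24 h arrays and 127 to 159 (median 144) on saline 24 h arrays. At 6 h it read 150 to 164 (median 152) on vinblastine arrays and 112 to 133 (median 121) on saline arrays. The 6 h groups did not overlap and the 24 h groups did. The change was 0.06 ± 0.06 at 24 h (-0.06 to 0.18) and 0.30 ± 0.06 at 6 h (adjusted p = 0.0110), with an interaction of -0.25 ± 0.09 (unadjusted p = 0.00548). Between 24 and 6 h the level changed by -0.04 ± 0.06 in vinblastine hearts and 0.21 ± 0.06 in saline hearts, so most of the interaction's size was the difference between the saline groups. The 6 h call was lost in a fit of the compared groups only (adjusted p = 0.0700), and in that fit without the 2 arrays. It was also lost without the arrays whose description ends in _2 (adjusted p = 0.270). Leaving out any of 5 single arrays lost it too: vinblastine 6 h replicate 2 or 6, or saline 6 h replicate 2, 3 or 4 (adjusted p up to 0.0955). Of the 19 RNA polymerase III genes tested out of 23, the others had no call, and Brf1, a factor that brings the polymerase to its genes, had an unadjusted p of 0.0361 at 6 h.

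The genes with the smallest interaction p besides tubulins were picked for it and are given as a description. Pex26, a factor for import into peroxisomes, had changes of -0.13 at 24 h and 0.19 at 6 h (interaction -0.32, unadjusted p = 0.00059, adjusted p = 0.999). Smim3 had -0.12 and 0.31 (interaction -0.43), Clec2l -0.22 and 0.14 (-0.36), and Dtx2 -0.13 and 0.21 (-0.34). Trex1, a DNA exonuclease, had 0.24 and -0.17 (0.41). None passed the threshold. Between 24 and 6 h Pex26 changed by -0.11 in vinblastine hearts and 0.21 in saline hearts, and Clec2l by -0.06 and 0.30. For Pex26 and Clec2l most of the interaction's size was thus the difference between the saline groups. In the same order Smim3 changed by -0.21 and 0.22, Dtx2 by -0.21 and 0.12, and Trex1 by 0.29 and -0.12.

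Other gene groups had no called member in the 3 comparisons. Interferon-stimulated genes (26 of 34 tested) had 0 of 26 with an unadjusted p under 0.05 at 24 h and 7 at 6 h, all higher, with a median of 0.08 at 24 h and 0.21 at 6 h; without the 2 arrays these were 0, 5, 0.06 and 0.18. Irf1, a transcription factor of this response, read 203 to 383 at 24 h after vinblastine and 222 to 274 after saline, and 233 to 402 at 6 h after vinblastine and 169 to 270 after saline. Its change of 0.39 ± 0.12 at 6 h had an adjusted p of 0.846. NF-kappaB and acute phase genes (18 of 23 tested) had 5 higher at 6 h, or 1 without the 2 arrays, and 0 at 24 h. Proteasome and muscle atrophy genes (27 of 30 tested) had 1 lower at 24 h, with and without the 2 arrays, and 4 higher at 6 h, or 2 without the 2 arrays. Over all genes 3.25% were higher at 6 h, or 2.46% without the 2 arrays, and 1.38% were lower at 24 h, or 0.875% without the 2 arrays. In mitosis and G2/M (16 of 28 tested), 4 were lower at 24 h, or 0 without the 2 arrays.

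Red cell transcripts, chosen after their values were seen, were among the lower ones at 24 h. Alas2, the first enzyme of heme synthesis in red cells, read 129 to 476 (median 201) on vinblastine 24 h arrays and 387 to 540 (median 432) on saline 24 h arrays. At 6 h it read 287 to 521 (median 395) on vinblastine arrays and 322 to 786 (median 472) on saline arrays. The 4 vinblastine 24 h arrays other than replicates 3 and 5 lay below all saline arrays. Its change was -0.82 ± 0.20 at 24 h (adjusted p = 0.800) and -0.33 ± 0.20 at 6 h, and without the 10 arrays -0.97 ± 0.19 at 24 h (adjusted p = 0.0339), the only gene called at 24 h. Hbb changed by -0.43 ± 0.12 at 24 h and -0.23 ± 0.12 at 6 h. The changes of Hba-a3 were -0.58 ± 0.16 and -0.33 ± 0.16, and neither gene passed. Globin genes have near-identical copies that a probe set may share. Summed erythroid markers (4 of 7 measured) had a median of 8769 on vinblastine 24 h arrays and 12784 on saline 24 h arrays, and of 11374 and 13413 at 6 h. Most of this sum is Hbb, with a mean of 11208 over the 24 arrays, against 400 for Alas2, 225 for Slc4a1 and 90.6 for Ahsp. At 24 h Slc4a1 changed by -0.44 and Ahsp by -0.10. In bulk heart tissue fewer blood cells and less RNA per cell cannot be told apart.

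**Figure D5:**
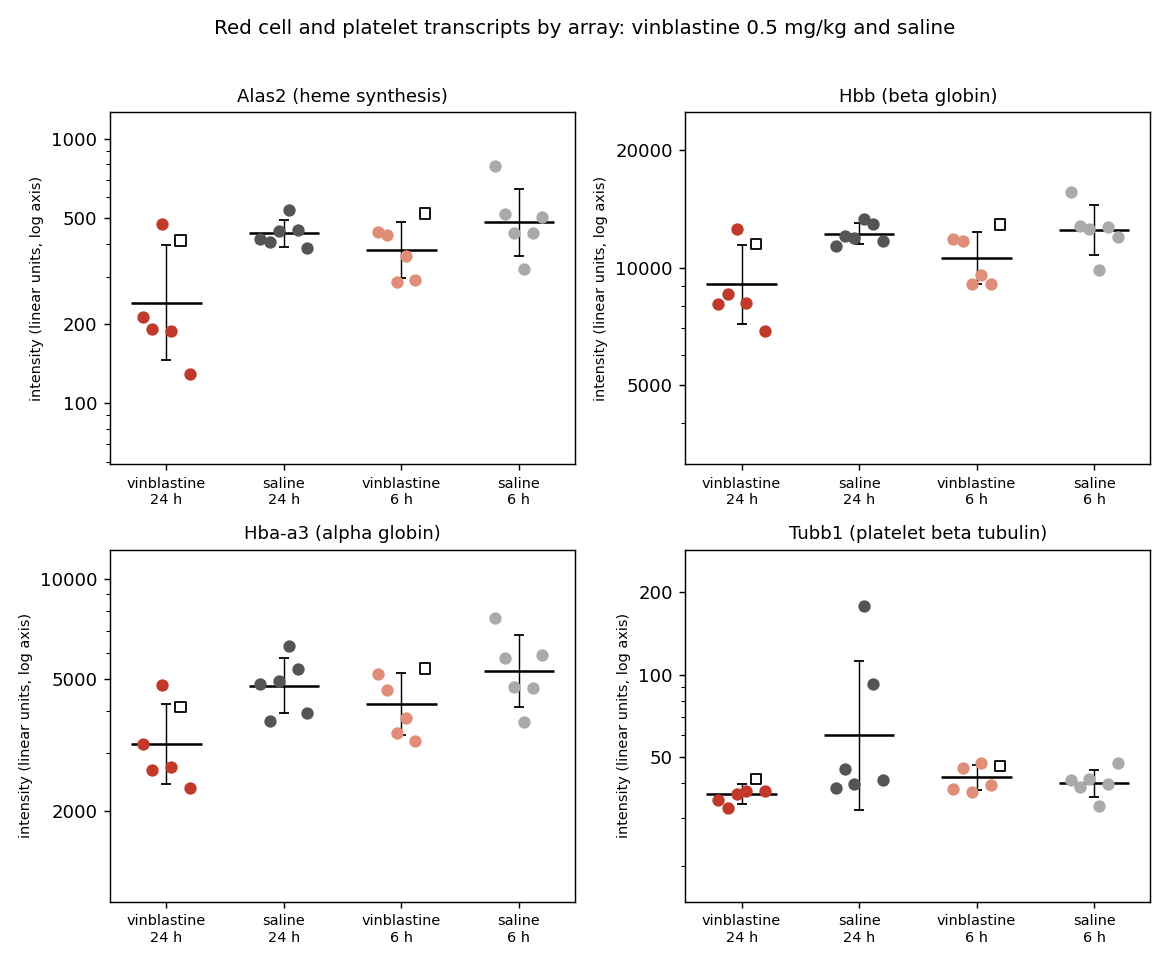
Intensity (log axis) of Alas2, Hbb, Hba-a3 and Tubb1 by array. Open squares are the 2 arrays set apart as nearer to another group, and bars mark the mean and SD on the log2 scale (n = 6). The Alas2 points of 4 vinblastine 24 h arrays lie below all saline 24 h points, and Tubb1 is high on 2 saline 24 h arrays.

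The interaction at 0.5 mg/kg was set against that at 3 mg/kg, in which the saline arrays cancel. It differed in 184 of 11319 genes (1.63%), 61 positive (0.539%) and 123 negative (1.09%). Without the 2 arrays the count was 226 (2%), 83 positive (0.733%) and 143 negative (1.26%). Without the 10 arrays the count was 527 (4.66%), 232 positive (2.05%) and 295 negative (2.61%). It was 40 when the vinblastine groups alone were fitted and 620 with array weights. It ranged from 110 to 469 on leaving out single arrays: 110 without vinblastine 24 h replicate 5, 113 without vinblastine 6 h replicate 3 and 469 without vinblastine 6 h replicate 6. Without vinblastine 3 mg/kg 6 h replicate 1 it was 221. That array read 1228 for Tubb4b, against 430 to 524 on the rest of its group, and 405 for Tfrc, against 1499 to 2130. None of the 9 alpha and beta tubulins was called with all arrays. Without the 10 arrays 1 was, Tubb2a, by -1.36 ± 0.23 (adjusted p = 4.39e-05; -1.40 ± 0.49 with all arrays, adjusted p = 0.121; -1.09 ± 0.45 without the 2 arrays, adjusted p = 0.215). Tuba4a read 709 to 5641 on 0.5 mg/kg 24 h arrays and 2027 to 3371 on 3 mg/kg 24 h arrays, and 554 to 817 and 556 to 841 at 6 h. The difference of its interactions was 0.24 ± 0.69, with an interval of -1.13 to 1.62.

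The 6 genes furthest apart between doses were chosen for their size. Tfrc, the transferrin receptor, read 1866 to 3315 (median 2699) on 0.5 mg/kg 24 h arrays and 256 to 714 (median 417) on 3 mg/kg 24 h arrays, with a median of 3113 on saline 24 h arrays. At 6 h its medians were 2237 at 0.5 mg/kg, 1817 at 3 mg/kg and 2075 after saline, and the difference of interactions was 1.92 ± 0.48 (adjusted p = 0.0175). The doses did not overlap at 24 h. Lyve1, a receptor of lymphatic vessels and some macrophages, read 166 to 366 (median 303) on 0.5 mg/kg 24 h arrays and 627 to 959 (median 730.0) on 3 mg/kg 24 h arrays. Its 6 h medians were 364 and 221 for the same doses, and its saline medians 255 at 24 h and 280 at 6 h (-1.91 ± 0.25, adjusted p = 1.39e-06). Sult1a1, a sulfotransferase, read 170 to 445 (median 255) on 0.5 mg/kg 24 h arrays and 837 to 1912 (median 1241) on 3 mg/kg 24 h arrays, with 6 h medians of 450 and 575 (-1.81 ± 0.31, adjusted p = 0.000178). Neither gene's 24 h ranges overlapped between doses.

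Mx1, an interferon-induced antiviral protein, read 31.5 to 50.7 on 0.5 mg/kg 24 h arrays and 65.6 to 578.8 on 3 mg/kg 24 h arrays (-1.84 ± 0.48, adjusted p = 0.0248). S100a8, the partner of S100a9, differed through its 6 h levels, 27.0 to 312.8 at 0.5 mg/kg and 140.7 to 318.8 at 3 mg/kg (1.79 ± 0.45, adjusted p = 0.0182). The highest of the 0.5 mg/kg values was replicate 6, one of the 2 arrays, and the other 5 read at most 66.0. The difference was 1.92 ± 0.37 without the 2 arrays (adjusted p = 0.00133). S100a8 was dim on the 24 arrays of the compared groups, with a mean intensity of 46.0 and a percentile of 31.6. The filter asked for values above the 40th percentile on at least 5 of all arrays, the 3 mg/kg arrays among them. S100a8 could thus pass through the same high 3 mg/kg 6 h values that make the difference. Mx1 also read low at 0.5 mg/kg, and the part of the filter in either call was not tested. Ccl2, a chemokine that attracts monocytes, had medians of 90.3 on 0.5 mg/kg 24 h arrays and 73.7 on 3 mg/kg 24 h arrays, and of 78.6 and 247 at 6 h. It gave 1.79 ± 0.50 (adjusted p = 0.0413), and the call was lost without the 2 arrays (adjusted p = 0.0713) or the 10 arrays (adjusted p = 0.0649). Of the 26 interferon-stimulated genes 5 were called, all negative, where 1.09% of all genes were.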

How the data were processed

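Heart RNA was hybridised to Affymetrix arrays, 1 per animal. The deposited table holds 1 linear intensity per probe set and array, between 9.76 and 39497; how the authors normalized and summarised it is not given in the sources used here. No raw scan was used, and the number of arrays limits the precision. Of 31099 probe sets, 57 were controls, 20826 carried 1 gene symbol of the platform annotation and 436 several. The brightest probe set stood for its gene. After adding 16, the log2 values of 11319 genes above the 40th percentile on at least 5 arrays were fitted as 14 group means over all 82 arrays with limma 3.58.1 (R 4.3.3), and p-values were adjusted by Benjamini-Hochberg over these genes. Errors of log2 changes are model standard errors.

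An array was set apart where its root mean square log2 distance to the median of its own group exceeded 1.3 times that to another group. Genes named were those past the threshold (up to 10 a direction), the measured tubulins, the 5 smallest interaction p-values a direction, for each of 24 gene lists the member with the smallest interaction p, 4 genes around Rfx2, and for the dose comparison the 3 largest differences a direction; some are left out for length, and LOC, RGD and AABR symbols are not named. The members and lists were chosen with earlier results of these data known. The code was tested on simulated data. The alternatives were 14 settings besides leaving out each array in turn. Promoters came from RefSeq (GRCr8).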

Additional observations from a re-analysis of the deposited data

Results flagged for a closer look

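In 104 groups of 6 arrays examined, 18 had a single array far from the others by the ratio of its gap to the range of the group. The genes include 6 chosen after their values were seen, and without these the count was 14 of 80 groups. Chance gives about 1 in 20 for a single group, but the groups share arrays, so these counts are not set against that rate. Of these, 6 fell on vinblastine 24 h replicate 5 and 6 on vinblastine 6 h replicate 6. At 24 h after vinblastine, replicate 5 was lowest for Tuba4a (0.642), Tubb4b (0.633), Tubb2a (0.747) and Pex26 (0.716), and highest for S100a9 (0.941) and Otud1 (0.711). At 6 h after vinblastine, replicate 6 was lowest for Tuba4a (0.691), Tubb4b (0.811), Tuba8 (0.636) and Tppp3 (0.639), and highest for Otud1 (0.782) and Nppb (0.723). In saline 24 h arrays replicate 6 was lowest for Tuba4a (0.664), Tubb4b (0.679) and Tubg1 (0.638), and highest for Fam216b (0.837) and Tppp3 (0.627). In saline 6 h arrays replicate 3 was lowest for Clec2l (0.646).

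The interaction differed between 0.5 and 3 mg/kg in 184 genes by the test of the difference. Among the largest were Tfrc (1.92), S100a8 (1.79) and Ccl2 (1.79), and Lyve1 (-1.91), Mx1 (-1.84) and Sult1a1 (-1.81), on the log2 scale. The part of the expression filter in the S100a8 and Mx1 calls was not tested.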

How the results depend on the processing

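The interaction called 0 genes under each of the other settings tried, except 6 without the 10 arrays and 6 in the fit of just the compared groups without the 2 arrays, both chosen after seeing the data. Single arrays left out gave 0 to 0 genes for the interaction and 0 to 0 for the change at 24 h, 3 to 6 for the change at 6 h, and 110 to 469 for the difference between doses. The change at 6 h had 10 calls without the 10 arrays. The change at 24 h had 3 calls with array weights, Tubb1 among them, and 1 without the 10 arrays. The difference between doses had 279 calls with quantile normalization, 40 in the fit of just the compared groups, 620 with array weights and 527 without the 10 arrays. The cause of these differences was not tested. Replicate numbers were not used to pair the samples in the main fit. Of 36 same-number pairs 14 correlated over 0.1 (r from -0.35 to 0.45), and 6 of 24 arrays correlated best with their own number. Pairs of unlike number were not summarised beside these, so the check cannot settle whether the numbers mark pairs. With the replicate block the interaction called 0 genes, the change at 6 h 6, the change at 24 h 0 and the dose difference 201. Signs turned for values near 0. The Tppp3 interaction (0.0002) was -0.0042 with a pseudocount of 1 and -0.32 to 0.31 without single arrays. The Zfp423 change at 6 h (-0.03) was 0.0078 with array weights, 0.0726 without the 2 arrays, without the 10, and in the fit of just the compared groups without the 2, and -0.10 to 0.0726 without single arrays. The Fam216b change at 24 h (-0.14) was 0.11 with array weights and -0.29 to 0.22 without single arrays, and its interaction -0.47 to 0.0450. Changes at 24 h of Tubb5 and Tuba8 turned to 0.13 and 0.18 without the 2 arrays, without the 10, and in the fit of compared groups without the 2; single arrays gave -0.27 to 0.13 and -0.38 to 0.18.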

Other observations

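Probe sets with no gene symbol of their own, 4961 in number, were fitted separately. They gave 0 calls in the interaction (121 with an unadjusted p under 0.05), 0 at 24 h (110) and 0 at 6 h (192). Their interactions differed between 0.5 and 3 mg/kg in 17 positive and 24 negative cases.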
